A study of Homo sapiens with 4 samples.

Results

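AluJ regions are the stretches of the human genome, counted on 1 strand, in which every repeat named on that strand is an AluJ element. A count belongs to the whole region, which may also hold sequence that is not AluJ. The AluJ regions were taken from both deposited count tables as the rows whose repeat names all begin with AluJ. This gave 70069 of 3814162 regions in J2 (1.84%) and 38090 of 2310971 in Input (1.65%). No measured value entered the choice. Among those of the J2 table, 29495 carried AluJb, 16848 AluJo, 18909 AluJr, 4306 AluJr4 and 511 more than 1 AluJ subfamily. In the Input table the numbers were 15683 AluJb, 9337 AluJo, 10411 AluJr, 2401 AluJr4 and 258 with more than 1 subfamily.

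The cells were NCI-H1944, a lung adenocarcinoma line of wild-type (WT) genotype that all groups share. The groups were MPS1i J2, DMSO J2, MPS1i Input and DMSO Input, with 1 library each. MPS1i cells received BAY-1217389, an inhibitor of the spindle checkpoint kinase MPS1, at 100 nM for 48 h and were cultured for 24 h after washout, and DMSO cells received the solvent on the same schedule. Part of each lysate (10%) was kept as total RNA, called Input, and the remainder went into a precipitation with J2, which is an antibody to double-stranded RNA (dsRNA). The design asks which dsRNA-forming transcripts are altered by this pulse of drug.

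Alu elements are primate retrotransposons derived from the 7SL RNA of the signal recognition particle, and AluJ is their oldest subfamily. Most copies lie in introns and between genes and are transcribed as parts of longer RNAs. Where 2 copies lie in opposite orientation in 1 transcript they can pair into an RNA hairpin, a known substrate of the editing enzyme ADAR and a known ligand of the sensors MDA5 (IFIH1) and PKR (EIF2AK2).

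The libraries summed to 6697479 counts for MPS1i J2, 9793355 for DMSO J2, 4844956 for MPS1i Input and 6381610 for DMSO Input. With 1 library per group there is no replicate spread and no test of a condition, so every difference below compares 2 libraries. Ratios are given as log2 of CPM (each library scaled by its summed count) and are followed in brackets by the exact 95% interval for counting error alone. Epithelial markers were the only measured marker list, with 4 of 8 genes above the count minimum, none of them called, and summed levels of 88.8 CPM in MPS1i J2 and 95.2 CPM in DMSO J2. The fibroblast, leukocyte and hepatocyte lists had no measured gene and summed to at most 2.48 CPM in any library. KRT19 and NKX2-1, keratin and transcription factor markers of lung epithelium, were at 0 in both J2 and both Input libraries, and 3390 of all regions of the J2 table share more than 1 base with an annotated exon. The epithelial list summed to 838 CPM in MPS1i Input and 513 CPM in DMSO Input.

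Regions that name AluJ alone among their repeats took a smaller share of the MPS1i J2 library than of the DMSO J2 library. They held 141548 counts in MPS1i J2 and 267246 in DMSO J2, which is 2.11% and 2.73% of the libraries and a log2 ratio of -0.37 [-0.38, -0.36]. In Input they held 60445 counts in MPS1i and 86314 in DMSO, or 1.25% and 1.35%, with a ratio of -0.12 [-0.13, -0.10]. Over all regions that name an AluJ, alone or with other repeats, the ratio was -0.027 [-0.031, -0.022] in J2 and 0.039 [0.033, 0.046] in Input. For comparison, the ratio in J2 was -0.30 for AluS, -0.30 for AluY, -0.39 for the FAM, FLAM and FRAM monomers and 0.00 for regions with no repeat on the strand. In Input the same groups were at 0.04, -0.07, 0.47 and -0.07. Scaling by TMM moved every J2 ratio up by 0.19 and every Input ratio down by 0.06, which leaves AluJ at -0.17 in J2 and -0.18 in Input. In such bulk libraries fewer cells of a kind and less RNA per cell cannot be told apart.

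The direction of the sum differed between AluJ regions with and without a region on the other strand. The 15274 AluJ regions that no region overlapped on the opposite strand held 8017 counts in MPS1i J2 and 8179 in DMSO J2, a ratio of 0.52 [0.47, 0.56], and in Input 5047 and 5052, a ratio of 0.40 [0.34, 0.45]. The 54795 others held 133531 counts in MPS1i J2 and 259067 in DMSO J2, a ratio of -0.41 [-0.42, -0.40]. Of the AluJ regions without such an overlap 34.7% lay on the strand of a gene, against 67.9% of those with one. Those without one held 5.66% of the AluJ counts of MPS1i J2 and 3.06% of those of DMSO J2. Their median length in J2 was 67 bp, against 125 bp. By the 2-fold rule given below, 2 of them were higher in MPS1i J2 (7.41% of those measured) and 3 lower (11.1%), so these few calls did not follow the sum.

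Many AluJ regions held few reads, and a small number held a large share. A read was found in 25133 AluJ regions of the MPS1i J2 library and 31543 of the DMSO J2 library, or 25133 and 27234 at equal depth. In Input the numbers were 9040 in MPS1i and 19876 in DMSO, or 9040 and 17336 at equal depth, and the DMSO Input library held 9159 AluJ regions with exactly 1 read against 2679 in MPS1i Input. Among regions of any kind, 484849 held a read in MPS1i Input and 940751 in DMSO Input, so the lower number there is not particular to AluJ. In J2 these numbers were 1176736 in MPS1i and 1208576 in DMSO. The 10 most-read AluJ regions took 12.4% of the AluJ counts of MPS1i J2 and 8.26% of those of DMSO J2, and 15.7% and 11.3% in Input. The 100 most-read took 32.5% in MPS1i J2 and 25.4% in DMSO J2, and 32.6% and 26.9% in Input. When each region was counted at most once per library and scaled by the full library sums, the AluJ ratio was 0.22 [0.20, 0.24] in J2 and -0.74 [-0.78, -0.70] in Input. The positive sign in J2 rests on that scaling, as at equal depth 25133 AluJ regions were reached in MPS1i J2 and 27234 in DMSO J2. Numbers of regions reached do not grow in proportion to depth.

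Every AluJ subfamily was lower in MPS1i J2 by library scaling. AluJb had 7179 CPM in MPS1i J2 and 9987 CPM in DMSO J2, a ratio of -0.48 [-0.49, -0.46]. AluJo followed at -0.36 [-0.38, -0.34], AluJr at -0.29 [-0.31, -0.28] and AluJr4 at -0.16 [-0.19, -0.12], and regions with more than 1 subfamily were at -0.41 [-0.46, -0.36]. AluJr4 turned to 0.04 under TMM scaling, whereas the other subfamilies kept their sign. In Input AluJb was at -0.20 [-0.22, -0.17], AluJo at -0.14 [-0.17, -0.12], AluJr at 0.00 [-0.03, 0.03], AluJr4 at -0.060 [-0.117, -0.0030] and the mixed regions at -0.36 [-0.50, -0.22]. AluJr in Input moved to -0.06 under TMM scaling.

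The position of an AluJ region relative to genes separated the losses from the gains. AluJ regions on the strand of an annotated gene held 94298 counts in MPS1i J2 and 213684 in DMSO J2, a ratio of -0.63 [-0.64, -0.62]. Those opposite a gene held 11451 counts in MPS1i J2 and 12046 in DMSO J2, a ratio of 0.48 [0.44, 0.51], and those outside genes 35799 and 41516, a ratio of 0.33 [0.31, 0.35]. All 5 AluJ classes (AluJb, AluJo, AluJr, AluJr4 and mixed) were lower on the gene strand, between -0.43 and -0.84, and higher in both other positions, between 0.15 and 0.76. Input had the same contrast, with -0.34 [-0.36, -0.32] on the gene strand, 0.55 [0.49, 0.61] opposite genes and 0.59 [0.56, 0.63] outside genes.

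**Figure D1:**
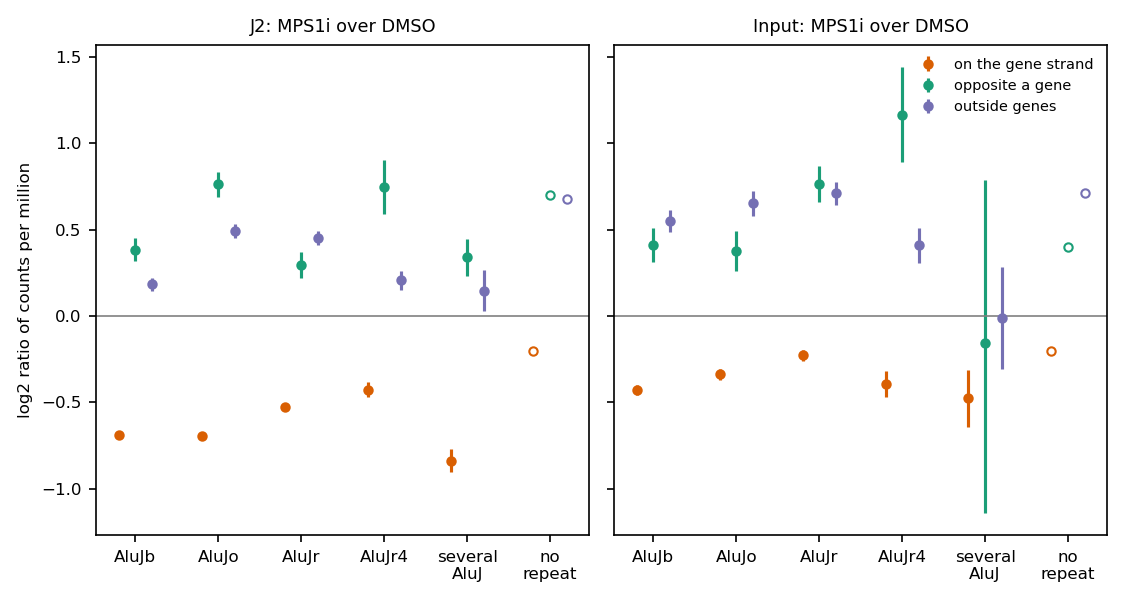
Log2 ratio of CPM, MPS1i over DMSO, of AluJ subfamilies summed by position relative to annotated genes (left J2, right Input; filled points AluJ, open points regions without a repeat; bars are 95% counting intervals, 1 library per group). On the gene strand all 5 AluJ classes lie below 0 in both panels, and in J2 all 5 lie above 0 opposite and outside genes, where the mixed regions of Input lie at -0.16 and -0.0090.

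Regions without a repeat divided in the same way, so the contrast is not particular to AluJ. In J2 they were at -0.20 on the gene strand, 0.70 opposite genes and 0.68 outside genes, so that AluJ was the lower of the 2 in each position. In Input they were at -0.20, 0.40 and 0.71. AluS on the gene strand was at -0.50 in J2 and -0.08 in Input, and AluY at -0.48 and -0.32. The part of the library-wide contrast between positions in the AluJ sum was not tested.

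By the deposited annotation, summed AluJ counts were lower in introns and higher in intergenic regions in MPS1i. Intronic AluJ regions, 46387 of the 70069 in J2, held 81177 counts in MPS1i J2 and 187800 in DMSO J2, a ratio of -0.66 [-0.67, -0.65], and -0.33 [-0.35, -0.32] in Input. Intergenic AluJ regions were at 0.18 [0.16, 0.20] in J2 and 0.49 [0.46, 0.53] in Input. The intergenic regions that GENCODE places on a gene strand were at -0.39 [-0.42, -0.35] in J2, and of all 192 intergenic AluJ regions with at least 50 counts in J2, 28 were at least 2-fold higher and 36 lower, at a median of -0.29. AluJ regions at gene ends (TTS, transcription termination site) were at 0.11 [0.08, 0.15] in J2 and 0.23 [0.17, 0.29] in Input. Promoter AluJ regions were at -0.05 [-0.11, 0.02] in J2, where TMM scaling gave 0.15, and at 0.06 [-0.04, 0.17] in Input. In J2, 17 AluJ regions were annotated as 5' UTR, with 31 counts in MPS1i J2 and 68 in DMSO J2. Another 19 were annotated as exon, with 219 counts in MPS1i J2 and 109 in DMSO J2, of which a single region on chromosome 19 held 206 and 89.

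AluJ regions annotated as 3' UTR or as non-coding exon went opposite ways in J2 and Input, and 3 of these 4 values turned on a single region. In the 3' UTR class 421 of 536 regions in J2 and 418 of 546 in Input lay opposite a gene. Of the non-coding class in J2, 142 of 292 regions did, with 1302 of 1554 counts in MPS1i and 1473 of 2010 in DMSO. The 3' UTR regions were at 0.13 [0.03, 0.23] in J2 and -0.21 [-0.34, -0.08] in Input. In J2 the highest count among them belonged to an AluJr4 region in MDM2, the ubiquitin ligase that degrades p53 (chr12:68847476-68848182), with 460 counts in MPS1i J2 and 284 in DMSO J2, a ratio of 1.24 [1.03, 1.46]. It lies wholly within an annotated exon of MDM2, and the class without it was at -0.18 [-0.30, -0.07]. Its Input match held 80 counts in MPS1i and 26 in DMSO. In Input the highest count belonged to a region in PDE4D, a cAMP phosphodiesterase, with 24 counts in MPS1i and 184 in DMSO. That region shares no base with an annotated exon, and the class without it was at -0.01 [-0.15, 0.13]. Non-coding exons were at 0.18 [0.08, 0.27] in J2 and -0.30 [-0.54, -0.07] in Input, and without their most-read region at -0.32 [-0.51, -0.12] in J2 and -0.35 [-0.62, -0.08] in Input.

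**Figure D2:**
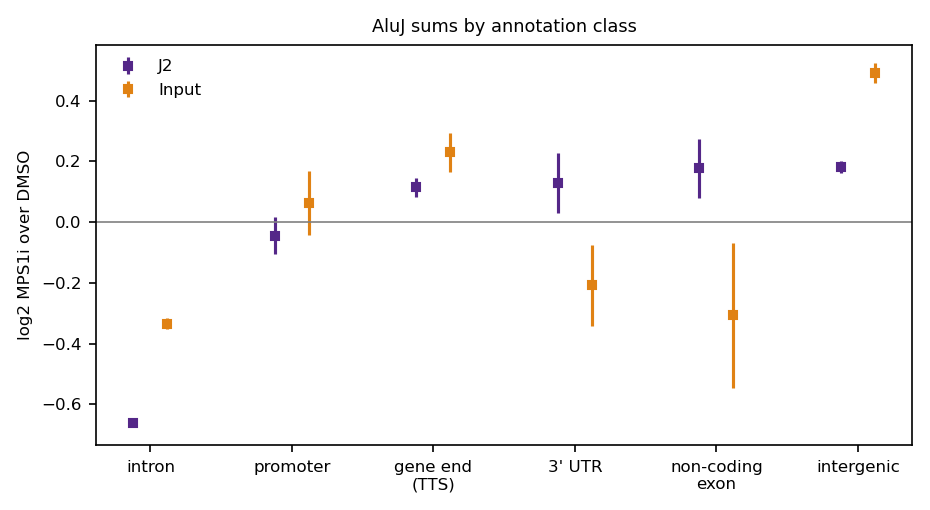
Log2 ratio of summed AluJ CPM, MPS1i over DMSO, by annotation class in J2 and in Input (bars are 95% counting intervals). Introns lie below 0 and intergenic regions above 0 in both tables, and 3' UTRs and non-coding exons lie on opposite sides of 0. The classes include regions opposite a gene.

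By library scaling, AluJ sums were lower in MPS1i J2 on 20 of 23 chromosomes and lower in MPS1i Input on 16 of 23. Chromosomes 2, 3, 5 and 8 lay between -0.186 and -0.020 in J2, and the upward shift of 0.195 under TMM scaling would turn their direction. Across the 23 chromosomes the AluJ ratio moved with that of regions without a repeat (Pearson's r 0.81 in J2 and 0.72 in Input), which describes chromosomes that share their libraries.

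Single AluJ regions were measured where the 2 libraries of a table together held at least 50 counts, and were called where they differed at least 2-fold with a counting interval that excluded no change. In J2, 1082 AluJ regions were measured, of which 87 were higher (8.04%) and 441 lower (40.8%) in MPS1i, and the median ratio was -0.71. Among 36852 measured regions of any kind, 12.5% were higher and 27.2% lower, and the median ratio was -0.21. AluS stood at 621 lower and 116 higher of 1753, and AluY at 118 lower and 20 higher of 318. AluJb had 187 of 417 regions lower, AluJo 122 of 289, AluJr 101 of 278 and AluJr4 21 of 68.

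The J2 calls went with the sums on the gene strand and opposite genes, but not outside genes. On the gene strand 415 of 866 measured AluJ regions were lower and 47 higher. Opposite genes 3 of 66 were lower (4.55%) and 14 higher (21.2%), at a median ratio of 0.17. Outside genes 23 of 150 were lower and 26 higher, or 15.3% and 17.3%, and the median was -0.15, although the sum there was 0.33. Regions without a repeat were lower in 8.20% and higher in 16.5% of cases opposite genes, and lower in 12.1% and higher in 16.6% outside genes. On the gene strand AluJ was lower in 47.9% of cases and regions without a repeat in 33.7%.

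In Input, 264 AluJ regions were measured, 41 lower (15.5%) and 36 higher (13.6%) in MPS1i, with a median of 0.00. The background there was 14.4% lower and 16.3% higher, so the AluJ shares lay near those of all regions. Of the AluJ regions that could be matched between the tables by at least 50% overlap in both directions and were measured in both, 147 in all, 12 were higher in both and 14 lower in both. In J2 alone the same 147 had 20 higher and 25 lower, and in Input 23 higher and 19 lower. No region was higher in J2 and lower in Input, and 2 were lower in J2 and higher in Input. These overlaps were not counted over all matched regions, so they cannot be read as particular to AluJ.

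**Figure D3:**
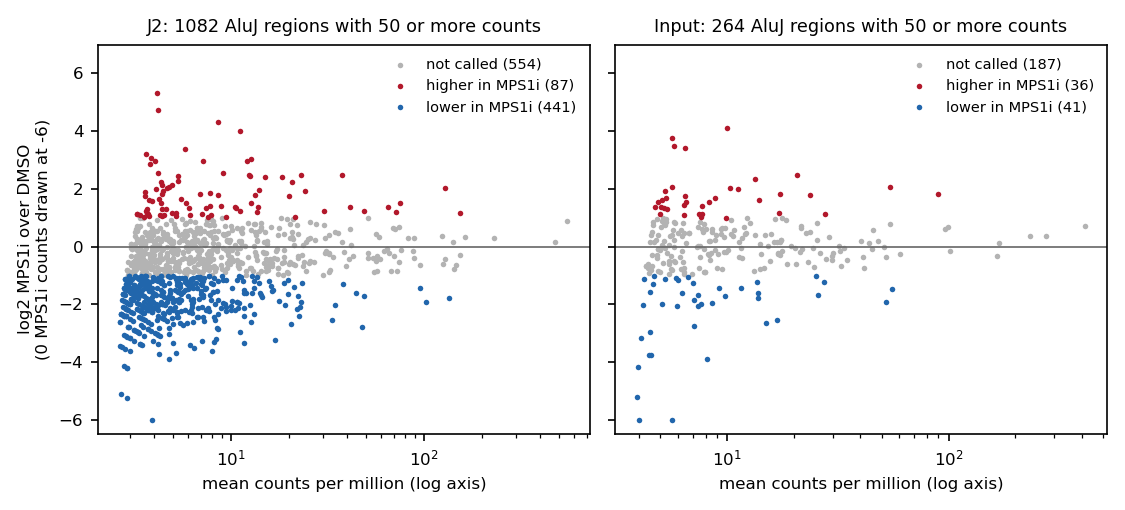
Each measured AluJ region by its mean CPM (log axis) and its log2 ratio, MPS1i over DMSO, in J2 (left) and Input (right); coloured points are called. In J2, 441 points are called lower and 87 higher, and in Input 41 and 36.

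Among the AluJ regions called higher in MPS1i J2, 2 of the 8 with the highest lower bound lay on the strand of a host gene. An AluJr region in DDX58, the gene of the RNA sensor RIG-I (chr9:32476848-32476982), held 71 counts in MPS1i J2 and 10 in DMSO J2, a ratio of 3.38 [2.41, 4.50]. It adjoins an annotated exon without sharing a base. A region with AluJb and AluJr in PPM1K, a mitochondrial phosphatase of branched-chain amino acid breakdown (chr4:88263628-88263930), held 143 counts in MPS1i J2 and 27 in DMSO J2, a ratio of 2.95 [2.35, 3.60]. The PPM1K region held 57 counts in MPS1i Input and 7 in DMSO Input, so it was higher in both tables.

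The other 6 of those 8 regions lay outside genes or opposite one. An AluJb region at chr20:5495255-5495939 held 54 counts in MPS1i J2 and 2 in DMSO J2, and another at chrX:24237435-24238397 held 110 and 8. An AluJr region at chr1:143726115-143727140 held 141 counts in MPS1i J2 and 13 in DMSO J2, and an AluJo region at chr19:43675090-43675795 held 54 and 3. An AluJo region opposite MRNIP, a gene of DNA repair (chr5:179839270-179839920), held 151 counts in MPS1i J2 and 27 in DMSO J2, and an AluJr region at chr8:85483146-85483953 held 85 and 16. The lower counting bound of these 6 ratios was 2.18 or more.

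All 8 AluJ regions with the strongest bound among those called lower in J2 lay on the strand of a gene. The AluJo region in ACACA, the acetyl-CoA carboxylase of fatty acid synthesis (chr17:37347126-37347524), held 0 counts in MPS1i J2 and 76 in DMSO J2, at least 17.3-fold lower against a floor of 3 counts in the library at 0. In ANAPC16, a subunit of the anaphase-promoting complex, the AluJo region held 1 count in MPS1i J2 and 55 in DMSO J2. In ABCC2, a drug efflux transporter, the AluJb region held 1 count in MPS1i J2 and 51 in DMSO J2. These 3 regions rest on at most 1 count in the MPS1i library.

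The other 5 of those 8 had larger counts in DMSO J2. The AluJo region of PDE4D held 22 counts in MPS1i J2 and 301 in DMSO J2, a ratio of -3.23 [-3.92, -2.60], and its Input match held 24 and 184. That of YWHAE, which encodes the 14-3-3 protein epsilon (chr17:1351966-1352512), held 14 counts in MPS1i J2 and 208 in DMSO J2, a ratio of -3.34 [-4.24, -2.57]. A region with AluJr and AluJo in ENSA, an inhibitor of the phosphatase PP2A-B55 in mitosis (chr1:150613279-150614802), held 81 counts in MPS1i J2 and 821 in DMSO J2, a ratio of -2.79 [-3.14, -2.46]. The remaining 2 lay in PLEKHA5, with 4 counts in MPS1i J2 and 88 in DMSO J2, and in the non-coding gene AL513314.2, with 8 and 144.

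In Input 5 of the 8 AluJ regions with the highest bound lay outside genes, although 19 of the 36 called higher lay on a gene strand and 12 outside genes. An AluJr region at chr10:110524617-110525657 held 92 counts in MPS1i Input and 7 in DMSO Input, and 262 and 68 in J2. An AluJo region at chr3:146510121-146510726 held 425 counts in MPS1i Input and 133 in DMSO Input, and 1379 and 500 in J2, so that its ratio was close to 2 on the log2 scale in both tables (2.07 and 2.01). An AluJb region at chr11:13018925-13019683 held 170 counts in MPS1i Input and 40 in DMSO Input, and 426 and 112 in J2. An AluJr region opposite LY6E, an interferon-induced gene (chr8:143018481-143022409), held 673 counts in MPS1i Input and 251 in DMSO Input, but 54 and 18 in J2. The other 4 were the PPM1K region, an AluJo region in AC006486.1 with 51 and 6 counts, an AluJr4 region at chr8:99957362-99957935 with 51 and 5, and an AluJb region at chr3:185980895-185981317 with 108 and 28.

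The 8 AluJ regions lowest in MPS1i Input lay in introns or at a gene start, on the gene strand. The AluJr region of ASS1, the argininosuccinate synthase of the urea cycle, held 0 counts in MPS1i Input and 72 in DMSO Input, at least 18.2-fold lower, and that of PARP4 held 0 and 51, at least 12.9-fold lower. The AluJb region of HNRNPC, whose protein binds Alu-derived uridine tracts in introns, held 1 count in MPS1i Input and 49 in DMSO Input. ABCC1, a drug efflux transporter, held 5 counts in MPS1i Input and 97 in DMSO Input, and ASPH 20 and 165. RPH3AL held 2 and 48, NEIL3, a DNA glycosylase, 3 and 54, and RPL13A, a ribosomal protein gene, 3 and 53, all given as MPS1i Input and DMSO Input.

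The most-read AluJ regions were not those that changed most. An AluJr region in MARCH7, a ubiquitin ligase (chr2:159743253-159743737), held 4826 counts in MPS1i J2 and 3831 in DMSO J2, a ratio of 0.88 [0.82, 0.94], and 2467 and 1997 in Input, a ratio of 0.70 [0.62, 0.79]. An intergenic AluJr4 region at chr5:157024830-157026711 held 3389 counts in MPS1i J2 and 4409 in DMSO J2, and 849 and 1032 in Input. An AluJo region at chr22:10934166-10936427 held 1710 counts in MPS1i J2 and 2045 in DMSO J2. A region with AluJb and AluJr4 opposite NQO2 (chr6:3020482-3021543) held 1225 counts in MPS1i J2 and 1411 in DMSO J2, and an AluJr region at the end of ZMYM1 (chr1:35115859-35116073) held 929 and 1648. None of these 5 passed the 2-fold rule in J2. In Input the 5 most read were the MARCH7 and chromosome 5 regions and AluJ regions in UGDH (1492 counts in MPS1i Input and 1532 in DMSO Input), NDUFV2 (1266 and 1303) and PIN4 (713 and 1166), and none was called. The UGDH region adjoins an exon and the NDUFV2 region shares 1 base with one.

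The edge of a region bears on the largest counts. The MARCH7 and ZMYM1 regions each share 1 base with an annotated exon of their strand, and 94 AluJ regions of the J2 table do so. Those 94 held 15539 counts in MPS1i J2 and 17623 in DMSO J2, with a median of 70 counts in the 2 libraries together. The 72 AluJ regions that adjoin an exon without sharing a base had a median of 18 counts, the 69851 apart from exons a median of 1, and the 52 sharing more than 1 base a median of 2. How far reads of the neighbouring exon were counted in these regions was not tested. Without all AluJ regions that share any base with an exon, the AluJ ratio was -0.44 [-0.45, -0.43] in J2 and -0.17 [-0.19, -0.16] in Input, and the J2 calls were 435 lower and 79 higher of 1022.

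To compare J2 with Input, AluJ regions that overlapped by 90% or more of each other's length, strand included, were matched 1 to 1, which left 3026 pairs. The 327 pairs of more than 350 bp held 18040 of the 22740 J2 counts in MPS1i and 27786 of the 37834 in DMSO. Summed over all 3026 pairs, AluJ regions took a larger share of J2 than of Input in both conditions. The amount depended on the scaling and on a few pairs. In MPS1i the pairs held 22740 counts in J2 and 11488 in Input, a ratio of 0.52 [0.49, 0.55]. In DMSO they held 37834 counts in J2 and 15829 in Input, a ratio of 0.64 [0.61, 0.67]. By library scaling the ratio in MPS1i was thus lower than that in DMSO by 0.12 [0.08, 0.16] on the log2 scale. Without the 10 most-read pairs it was 0.06 in MPS1i and 0.25 in DMSO, so most of the excess over Input rested on 10 pairs. Scaled without mitochondrial regions and the 100 most-read regions of the libraries, it was 0.14 in MPS1i and 0.21 in DMSO. TMM scaling, not applied to the pairs, shifts MPS1i over DMSO by 0.19 in J2 and -0.06 in Input. These shifts exceed the difference of 0.12 and would turn its direction. By library scaling the change from DMSO to MPS1i was 0.17 over all matched pairs, -0.29 for AluS and -0.45 for AluY.

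The excess over Input was not larger in AluJ than in AluS once regions sharing exon bases were left out. Pairs without a repeat were at -1.53 in MPS1i and -1.74 in DMSO, but 1 pair held 51.8% of their counts. Without their 10 most-read pairs they were at 0.12 and 0.11, against 0.06 and 0.25 for AluJ without its own 10. AluS pairs were at -0.09 in MPS1i and 0.20 in DMSO, and at 0.53 and 0.56 without exon overlap, where AluJ was at 0.44 and 0.53. Without exon overlap AluY was at -0.29 in MPS1i and 0.30 in DMSO, and pairs without a repeat at -0.07 and 0.03. Measured AluJ pairs were higher in J2 in 29 of 69 cases (42.0%) and lower in 7 in MPS1i, and higher in 64 of 124 cases (51.6%) and lower in 10 (8.06%) in DMSO. Over all measured pairs the shares were 24.0% higher and 17.0% lower in MPS1i, and 23.6% higher and 17.4% lower in DMSO. AluS pairs were higher in J2 in 39.3% of cases in MPS1i and 39.1% in DMSO.

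AluJ pairs with a listed Alu region nearby on the opposite strand, here called an inverted Alu, had a higher J2 ratio than the other pairs. For each pair, the distance to the nearest region on the opposite strand that named only AluJ, AluS or AluY elements was taken from both tables. No minimum count was set for such a region, so it may hold no read. The 576 pairs with such a region within 1000 bp held 8266 counts in J2 and 2373 in Input in MPS1i, a ratio of 1.33 [1.27, 1.40], and 14002 and 3572 in DMSO, a ratio of 1.35 [1.30, 1.41]. The 2450 pairs without one were at 0.20 [0.16, 0.24] in MPS1i and 0.34 [0.31, 0.37] in DMSO. Of the measured pairs near an inverted Alu, 11 of 15 were higher in J2 in MPS1i and 18 of 27 in DMSO, and none was lower. Of those farther away, 18 of 54 were higher and 7 lower in MPS1i, and 46 of 97 higher and 10 lower in DMSO. Neighbours were also drawn from the J2 regions, so this grouping may not be independent of the J2 signal. Such a neighbour is a region of the opposite strand, so any reads counted in it come from RNA of that strand, not from the RNA of the pair. Whether the RNA of the pair also held the sequence of the neighbour was not tested.

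The sign of the difference between near and far AluJ pairs was the same in every subset given here. Without the 10 most-read pairs the ratio was 0.91 within 1000 bp and -0.11 beyond in MPS1i, and 0.89 and 0.11 in DMSO. On the gene strand the ratios within 1000 bp and beyond were 1.20 and 0.08 in MPS1i, and 1.25 and 0.30 in DMSO. Among pairs of at most 350 bp they were 1.29 and -0.28 in MPS1i, and 1.09 and 0.10 in DMSO, and among longer pairs 1.34 and 0.37, and 1.42 and 0.47. Without exon overlap they were 1.30 and 0.09 in MPS1i, and 1.26 and 0.21 in DMSO, and outside genes 1.41 and 0.81, and 1.43 and 0.84. Opposite genes they were 1.23 and -1.33 in MPS1i, and 1.19 and -1.05 in DMSO. These subsets share pairs and are not independent of each other. A single pair held 54.9% of the counts within 1000 bp outside genes, 59.5% opposite genes and 54.8% among pairs of at most 350 bp. Without the 10 most-read pairs the largest share was 15.7%. Opposite genes only 2 near pairs were measured in MPS1i and 3 in DMSO.

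By distance, the AluJ ratio was 1.44 in MPS1i and 1.43 in DMSO where the inverted Alu region overlapped the pair, and 1.18 and 1.12 up to 300 bp away. In the next class, up to 1000 bp, it was 1.17 in MPS1i and 1.40 in DMSO, and up to 3000 bp 0.52 and 0.47. Up to 10000 bp it was 0.08 in MPS1i and 0.28 in DMSO, and beyond that -0.09 and 0.25. Without the 10 most-read pairs the overlapping class was at 0.84 in MPS1i and 0.25 in DMSO, and in DMSO the farthest classes were at 0.29 and 0.25. The class up to 1000 bp was then at 0.45 and 0.74 and that up to 3000 bp at -0.26 and -0.27, while the class up to 300 bp held none of those 10 pairs. AluS pairs also had a higher ratio near an inverted Alu, at 0.89 in MPS1i and 1.16 in DMSO against -0.37 and -0.14 farther away, and AluY at 0.85 and 1.42 against -0.30 and 0.00. Without their own 10 most-read pairs AluS was at 0.46 and 0.66 against 0.21 and 0.18, and AluY at 0.19 [-0.04, 0.42] and 0.67 against -0.35 and -0.24. A single AluY pair held 65.0% of the counts within 1000 bp. AluS pairs opposite genes were at -0.45 within 1000 bp and 0.11 beyond in MPS1i, and at -0.05 and -0.42 in DMSO. AluY pairs on the gene strand were at 0.27 and -0.34 in MPS1i, and at 0.005 and 0.006 in DMSO. In the other subsets used for AluJ the near AluS and AluY pairs were the higher. By distance AluS did not fall steadily, with 0.50 in MPS1i and 0.75 in DMSO where overlapping, and 0.77 and 0.54 beyond 10000 bp. Distances count only Alu copies that the tables hold as regions of their own.

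**Figure D4:**
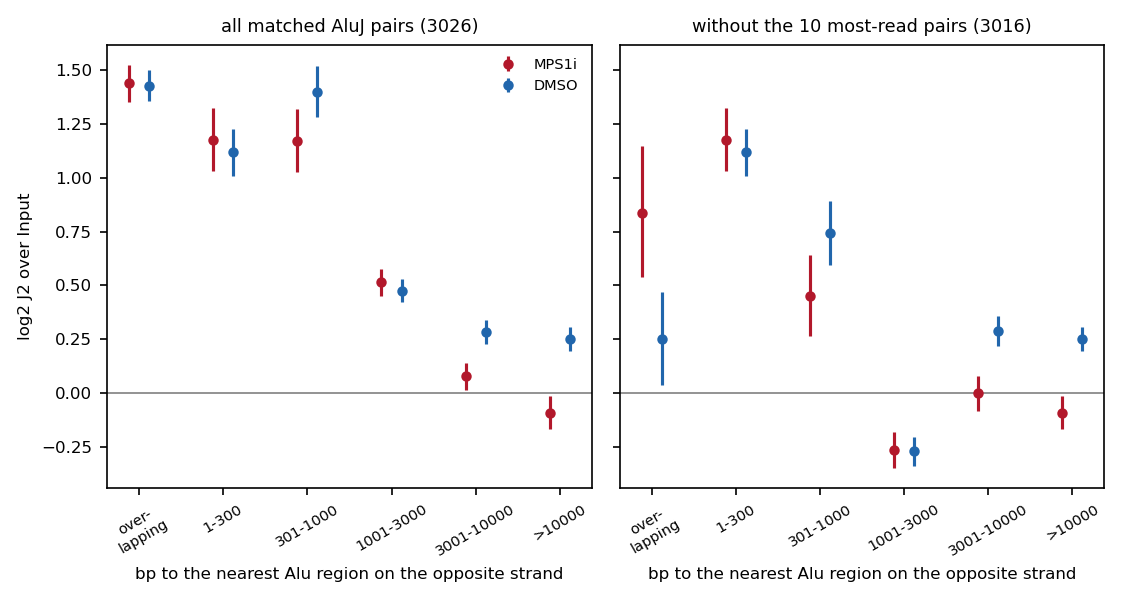
Log2 ratio of J2 over Input of summed AluJ pairs by the distance to the nearest Alu region on the opposite strand, in MPS1i and in DMSO (left all 3026 pairs, right without the 10 most-read; bars are 95% counting intervals). On the left the 3 classes within 1000 bp lie between 1.12 and 1.44 and the 3 farther classes between -0.09 and 0.52.

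The 6 AluJ pairs most enriched in J2 over both conditions included 3 with an inverted Alu region within 1000 bp. The ZMYM1 pair, with an inverted Alu at 401 bp, held 929 counts in J2 and 160 in Input in MPS1i, a ratio of 2.07 [1.83, 2.32], and 1648 and 220 in DMSO, a ratio of 2.29 [2.08, 2.50]. The chromosome 5 AluJr4 pair, overlapped by one, was at 1.53 in MPS1i and 1.48 in DMSO, and an AluJb pair at chr15:40397504-40399317, also overlapped, at 1.46 and 1.72. The chromosome 22 pair was at 2.21 in MPS1i and 1.67 in DMSO, an AluJr pair at chr6:136341303-136342271 at 1.71 and 1.68, and an AluJr pair in ZBTB1, a transcription factor gene, at 1.81 and 1.61. Their nearest inverted Alu regions lay 2952, 1580 and 4948 bp away.

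A few AluJ pairs were depleted by J2 in both conditions. An AluJo pair in PIN4, which overlaps the ribosomal protein gene RPS4X on the opposite strand, held 23 counts in J2 and 713 in Input in MPS1i, and 42 and 1166 in DMSO, ratios of -5.42 and -5.41. The AluJr pair opposite LY6E was at -4.11 in MPS1i and -4.42 in DMSO, and an AluJb pair opposite a gene on chromosome 4 at -5.22 and -4.34. An AluJr4 pair on chromosome 9 outside genes was at -4.11 in MPS1i and -3.58 in DMSO, and an AluJr pair in PSME4, a proteasome activator gene, at -3.14 and -1.93. The nearest inverted Alu region of these 5 pairs was between 1760 and 17358 bp away.

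The change of J2 enrichment between MPS1i and DMSO could be measured in 97 AluJ pairs, of which 12 were higher (12.4%) and 15 lower (15.5%). Over all measured pairs 13.6% were higher and 8.84% lower. The most-read pair called lower was an AluJb pair in CYP24A1, the vitamin D hydroxylase gene, with 344 counts in J2 and 470 in Input in MPS1i and 1368 and 682 in DMSO, a change of -1.30 [-1.54, -1.06]. A pair with 2 AluJo copies in RBAK-RBAKDN and the pseudogene RNF216P1, which may share reads with its parent gene, held 738 counts in J2 and 334 in Input in MPS1i and 1448 and 253 in DMSO, a change of -1.22 [-1.49, -0.95]. The most-read pair called higher, an AluJb pair in SAPCD1-AS1, held 234 counts in J2 and 48 in Input in MPS1i and 199 and 81 in DMSO, a change of 1.13 [0.55, 1.71]. Near an inverted Alu the summed change was -0.02 [-0.10, 0.06], and farther away -0.14 [-0.19, -0.09].

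The AluJ sum of a host gene shared its direction with that of its regions without a repeat in 1003 of 1181 genes in J2. AluJ counts were summed per gene over regions on the gene's strand, and 1209 genes were measured in J2, of which 38 were higher (3.14%) and 642 lower (53.1%) in MPS1i. Sums of regions without a repeat, for the same call rule, were lower in 21.2% and higher in 13.6% of 9471 genes. In the 1181 genes with both sums measured the median was -1.11 for AluJ and -0.80 for regions without a repeat, AluJ was the lower in 709 genes, and r was 0.55 across genes, which are not independent replicates. No gene was called in opposite directions by the 2 sums, 335 were lower by both and 15 higher by both.

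In Input 316 genes were measured by their AluJ sums, 90 lower (28.5%) and 21 higher (6.65%) in MPS1i. Regions without a repeat were lower in 19.9% and higher in 10.4% of 8596 genes. In the 300 Input genes with both sums measured and a finite ratio, 2 genes at 0 being left out, the median was -0.31 for AluJ and -0.64 for regions without a repeat, and 1 gene was called in opposite directions.

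**Figure D5:**
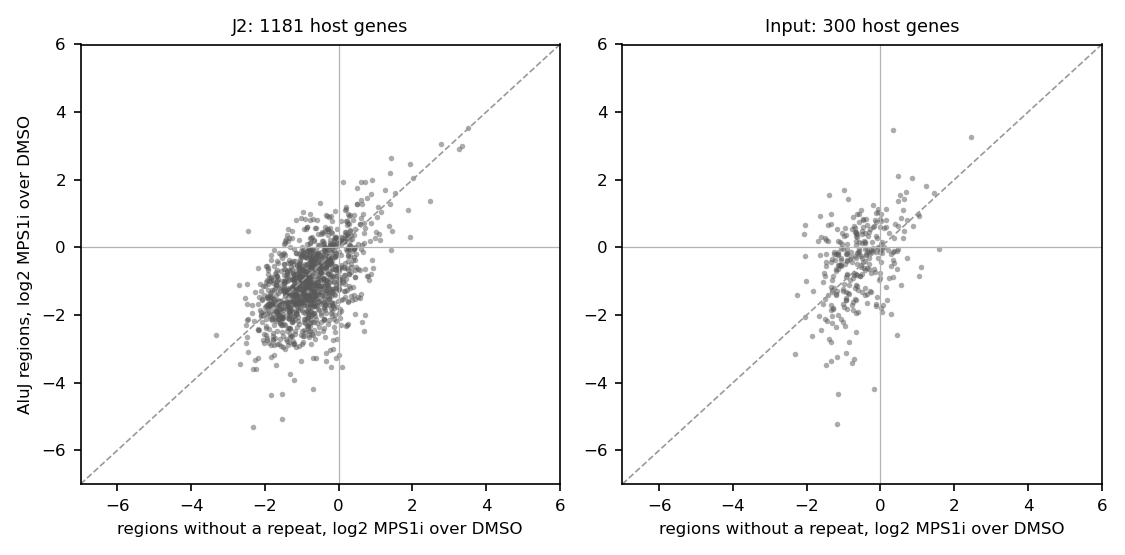
Log2 ratio, MPS1i over DMSO, of AluJ sums against sums of regions without a repeat in the same host gene, in J2 (1181 genes) and Input (300 genes); each point is 1 gene and the dashed line marks equal ratios. The 2 ratios share a sign in 1003 of the 1181 J2 genes, and 709 lie below the dashed line.

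The host genes with the highest lower bound of the AluJ ratio in J2 included DDX58 and PARP9. DDX58 held 87 AluJ counts in MPS1i J2 and 11 in DMSO J2, a ratio of 3.53 [2.62, 4.59], and its regions without a repeat 1262 and 163, a ratio of 3.50 [3.26, 3.75]. PARP9, an interferon-induced ADP-ribosyltransferase, held 46 AluJ counts in MPS1i J2 and 8 in DMSO J2, a ratio of 3.07 against 2.77 for its regions without a repeat. PPM1K was at 3.01 by AluJ and 3.35 without a repeat, ZNF275 at 2.90 and 3.27, FAM120AOS at 2.48 and 1.93, and AP001574.1 at 2.66 and 1.41. In all 6 genes both sums were called higher.

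The genes whose AluJ sums fell most had a lower AluJ ratio than that of their other regions. SUZ12, a subunit of the Polycomb complex PRC2, held 3 AluJ counts over 12 regions in MPS1i J2 and 89 in DMSO J2, a ratio of -4.34 [-6.65, -2.75], against -1.55 [-1.87, -1.23] for its regions without a repeat. MYO10, an unconventional myosin, held 3 and 90, a ratio of -4.36 [-6.66, -2.77] against -1.84 [-1.98, -1.70]. APP, the amyloid precursor gene, held 1 and 49 AluJ counts and was at -1.53 without a repeat. OGFOD3 held 1 and 58 and was at -2.31, and YWHAE held 14 and 208 and was at -2.26. AL513314.2 held 11 AluJ counts in MPS1i J2 and 166 in DMSO J2 and was at -0.35 [-1.15, 0.41] without a repeat. These genes were ranked by their AluJ ratio, so a lower AluJ value is built into the choice.

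In Input the lower bound of the AluJ ratio was highest in AC006486.1, with 51 counts in MPS1i and 6 in DMSO, and in PPM1K, with 58 and 8. PARP12, an interferon-induced ADP-ribosyltransferase, held 98 AluJ counts in MPS1i Input and 37 in DMSO Input, MDM2 88 and 37, PLAUR, the urokinase receptor, 47 and 15, and SVIL-AS1 39 and 12. CSNK1A1, a kinase of the Wnt pathway, held 0 and 59, at least 14.9-fold lower, and SARM1, an NAD hydrolase, 0 and 50, at least 12.7-fold lower. LRBA held 1 and 49, HECTD4 2 and 53, YTHDF2, a reader of RNA methylation, 2 and 48, and ASS1 6 and 85, all given as MPS1i Input and DMSO Input.

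Genes whose proteins bind or edit Alu RNA were examined as a list of 20, by sums of all their regions. In J2, 17 were measured, of which 2 were higher and 4 lower. IFIH1 held 2164 counts in MPS1i J2 and 332 in DMSO J2, a ratio of 3.25 [3.09, 3.42], and EIF2AK2 1697 and 1034, a ratio of 1.26 [1.15, 1.38]. Those lower in MPS1i included HNRNPC (-2.02), SAFB (-1.79) and NONO (-1.88), and the list median was -0.17. Of all 11206 measured genes 15.9% were higher and 19.6% lower, at a median of -0.20. In Input, 16 were measured, of which 3 were higher, ADAR (1.27), IFIH1 (2.67) and EIF2AK2 (1.60), and 5 lower, among them SAFB, MATR3, NONO and U2AF2, at a list median of -0.16. HNRNPC was not among them, with 8847 counts in MPS1i Input and 8923 in DMSO Input, a ratio of 0.39 [0.34, 0.43]. There 12.8% of 10185 genes were higher and 16.8% lower, at a median of -0.22.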

How the data were processed

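The authors deposited 2 tables (J2 and Input, 2 libraries each) of raw counts, 1 row for each region of 1 strand, with repeat names and annotation, per the file headers. Libraries were made with a stranded SMARTer total RNA kit, per the labels' protocols. The submitters' processing notes name Trim Galore, cutadapt, Trimmomatic, STAR, featureCounts and HOMER and the build GRCh38 (hg38), with no versions. How multi-mapping reads were treated is not given in the sources used here, and young or near-identical copies may share reads. Of the library columns, 0 were left unused.

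Counts were scaled to each library's summed count. A region, pair or gene was measured at 50 or more counts and called at 2-fold with an exact Clopper-Pearson 95% interval excluding equality. The interval covers counting error only. No molecular identifiers are named in the sources used here, so reads may not be independent molecules. A library at 0 was set to 3 counts for a bound. A change of J2 enrichment used counts plus 0.5, 50 J2 and 20 Input counts, and a normal approximation of the log ratio. Genes, exons and strand came from GENCODE release 29, overlaps from bedtools 2.31.1, TMM factors from edgeR 4.0.16, the remainder from Python 3.11.15. Some items, element sequences among them, are not reported here. The call rule was tested on simulated data. Members and lists were chosen with earlier results of these data known. Named regions were the 8 highest and 8 lowest called by counting bound and the 5 most read per table. Named pairs were the 6 most enriched in both conditions, named genes the 6 highest and 6 lowest called by the counting bound of their AluJ ratio. MDM2 in J2, NT5C2, the depleted pairs and the 3 changed pairs were named after their values were seen. The edge, length and most-read alternatives were chosen after seeing the data.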

Additional observations from a re-analysis of the deposited data

Results flagged for a closer look

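Of 99 AluJ classes by subfamily, annotation, position, distance to an inverted Alu, and pairs of these (subfamily with each of the others, annotation with position), 8 had ratios of MPS1i over DMSO on opposite sides of 0 in J2 and in Input, each with a counting interval that excluded 0. The difference was not tested, as each group is 1 library. AluJ annotated as 3' UTR was at 0.13 in J2 and -0.21 in Input, and its part on the gene strand at 0.14 and -0.42. AluJ annotated as non-coding exon was at 0.18 in J2 and -0.30 in Input. AluJr at gene ends was at -0.077 in J2 and 0.22 in Input, and without the ZMYM1 region the J2 value was -0.02 [-0.08, 0.03]. AluJr4 at promoters was at 0.31 in J2 and -1.60 in Input, where it rested on 7 counts in MPS1i and 28 in DMSO. In J2 a single AluJr4 region in NT5C2 held 659 of its 683 counts in MPS1i and 784 of 808 in DMSO. Intergenic AluJ on a gene strand was at -0.39 in J2 and 0.13 in Input. AluJ at gene ends but opposite a gene was at 0.59 in J2 and -0.29 in Input. AluJo within 1000 bp of an inverted Alu was at -0.18 in J2 and 0.15 in Input.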

How the results depend on the processing

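No paired analysis was possible because each group is 1 library, and for the same reason no replicate could be left out. By settings, the AluJ ratio in J2 (-0.37) and Input (-0.12) was -0.17 and -0.18 with TMM scaling, and -0.36 and -0.16 when scaled without mitochondria and the 100 most-read regions. With any name AluJ it was -0.027 and 0.039, without opposite-strand overlap 0.52 and 0.40, and with at most 1 read per region 0.22 and -0.74. It was -0.44 and -0.17 without exon overlap and -0.43 and -0.19 without the 10 most-read regions, and -0.15 in Input for regions of at most 350 bp. Higher calls in J2 and Input (87 and 36) became 824 and 484 with any name AluJ, 2 and 3 without opposite-strand overlap, 188 and 152 at a count minimum of 20, and 137 and 66 at 1.5-fold. Lower calls (441 and 41) became 282 and 27 at equal depth, 1054 and 344 with any name AluJ, 3 and 2 without opposite-strand overlap and 1192 and 174 at a minimum of 20, and 64 in Input at 1.5-fold. As shares of the measured regions, J2 calls of 8.04% higher and 40.8% lower became 16.0% and 20.5% with any name AluJ, 9.34% and 34.6% at equal depth, and 7.41% and 11.1% without opposite-strand overlap. For matched pairs the J2 over Input ratio in MPS1i and DMSO and its change (0.52, 0.64 and -0.12) were 0.48, 0.67 and -0.19 at 50% overlap, and 0.14, 0.21 and -0.072 scaled without mitochondria and the 100 most-read regions. They were 0.76, 1.01 and -0.25 over all AluJ regions and 0.059, 0.25 and -0.19 without the 10 most-read pairs, and the ratios were 0.44 and 0.53 without exon overlap. TMM scaling was not applied to the matched pairs, and it would turn the direction of the change of -0.12. The cause of these shifts was not tested. Of all alternatives, 19 kept the value within its limit, 42 moved it and 4 turned its direction. Those 4 include the J2 ratio with at most 1 read per region, whose sign rests on scaling numbers of regions by the full library sums. At equal depth fewer AluJ regions were reached in MPS1i J2 than in DMSO J2.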
